A study of Drosophila melanogaster and Drosophila biarmipes with 20 samples.

Results

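The regions described here are the open-chromatin regions of Drosophila melanogaster wings that lie off the main chromosome arms, on the Y chromosome and on sequence that the dm6 genome build could not place. They were found by joining overlapping entries of the 10 single-library D. melanogaster region lists into 1 union and keeping every joined region that was not on chrX, chr2L, chr2R, chr3L, chr3R, chr4 or the mitochondrial genome. The rule gave 845 of 98646 regions, which is 0.857% of the union, on 352 sequences. Of these, 204 regions lay on the assembled Y chromosome and 193 on 88 unplaced pieces assigned to the Y. A further 154 lay on 94 unplaced pieces assigned to the X, and 294 on 169 sequences assigned to no chromosome (chrUn). The set is therefore wider than the Y, with 397 of the 845 regions on sequence assigned to it.

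Open chromatin was mapped by ATAC-seq, a method that uses a transposase to cut open DNA and add sequencing adapters to it. All libraries came from male wings of flies kept at 20 °C, with 2 libraries per stage that the labels call biological replicates. The stages are given as the share of pupal development completed. The 0% group used 24 wing imaginal discs, the larval precursors of the wing, although the labels call the tissue pupal wings. The 48% group used 14 to 17 wings from at least 11 animals, and the protocol names this stage 47%. The 60%, 69% and 78% groups used 24 wings each, and wings older than 60% were cut before the tissue was disrupted. Wings of several animals were pooled in each library. The genotype is given only as a genome line of the species, and no mutation or treatment is named for any group.

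The Drosophila Y chromosome is heterochromatic almost throughout, which means that most of its DNA is packed into compact, repeat-rich chromatin. Its few protein-coding genes are read mainly in the male germ line, and several are known for a role in male fertility. Besides these genes it carries repeated arrays, among them the Suppressor of Stellate, Su(Ste), copies, which are known to silence the X-linked Stellate repeats in the testis. Unplaced pieces of a fly assembly are mostly made of such repeats, whose near-identical copies make the exact origin of a short read uncertain. The sources used here do not say how reads that match several places were treated, so a region on 1 copy may hold reads of another.

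The lists rested on 56282342 to 119278540 sequenced tags per library and held 41485 to 80705 entries. A library is said to list a region when any of its entries shares at least 1 base with it. The lists hold coordinates and no usable signal value, so presence and listed length are the measurements. No p-value is given, since an exact two-sided test of 2 libraries against 2 cannot go below 0.333. A region is called opened when both libraries of the later stage list it and neither library of the earlier stage does, and closed in the reverse case. These words describe the lists, not a measured change of chromatin.

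Few of these regions were listed in discs and mid-pupal wings and most of them were listed in late pupal wings. At 0%, the 2 libraries listed 161 and 170 of the 845 regions. At 48%, 102 and 133 were listed, and at 60% 348 and 274. At 69%, 569 and 482 were listed, and at 78% 675 and 715. Every library at 69% and 78% lay above every library of the 3 earlier stages, and both 48% libraries lay below both 0% libraries. All regions together were also lower at 48%, since 13.9% of these regions were listed per library at 48% against 19.6% at 0%, and 33.0% against 46.8% of all regions. The means were 165.5 ± 6.36, 117.5 ± 21.9, 311 ± 52.3, 525.5 ± 61.5 and 695 ± 28.3 regions at 0%, 48%, 60%, 69% and 78% (SD, n = 2 each), so that each step from 48% on was larger than the SD of either stage.

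The length listed on these sequences followed the same order. It was 45.9 and 47.7 kb at 0%, 29.9 and 39.2 kb at 48%, and 89.9 and 77.6 kb at 60%. It was 135 and 116 kb at 69% and 153 and 159 kb at 78%. These sequences thus held 0.847% and 0.747% of all listed bases at 78%, against 0.163% and 0.209% at 48% and 0.22% and 0.195% at 0%. The number of sequences with any listed region was 302 and 309 at 78%, against 63 and 82 at 48% and 103 and 101 at 0%.

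**Figure D1:**
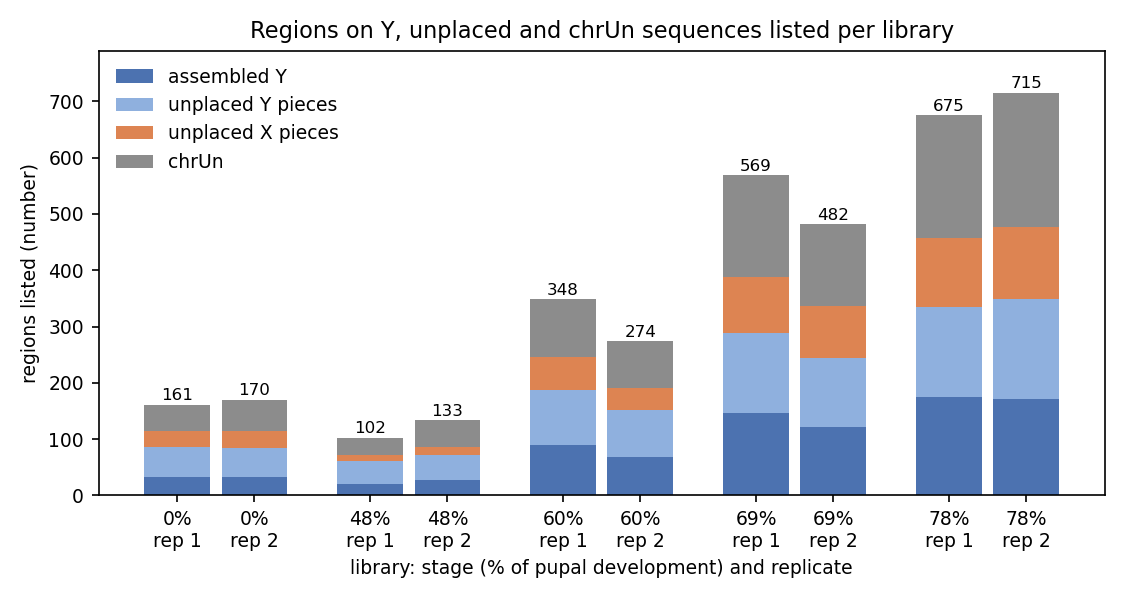
Number of regions on assembled Y, unplaced Y, unplaced X and chrUn sequences listed in each of the 10 libraries, stacked by class of sequence, with the total above each bar. The 48% libraries list 102 and 133 regions and the 78% libraries 675 and 715, and all 4 classes are larger at 78% than at 48%.

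All 4 classes of sequence showed this order of stages. On the assembled Y, 32 and 32 regions were listed at 0%, 21 and 28 at 48%, 89 and 68 at 60%, 147 and 121 at 69%, and 174 and 172 at 78%. On unplaced Y pieces the numbers at the same stages were 53 and 52, 40 and 43, 98 and 83, 141 and 123, and 161 and 176. Unplaced X pieces belong to a chromosome whose main arm carries many active genes. They held 29 and 31 listed regions at 0%, 11 and 15 at 48%, 59 and 39 at 60%, 100 and 92 at 69%, and 123 and 128 at 78%. At 48%, 8.44% of the X pieces' regions were listed per library, against 21.5% of those on Y pieces. At 0% the shares were 19.5% and 27.2%, beside 15.7% on the assembled Y and 17.3% on chrUn. All 10 libraries listed 7.14% of the X pieces' regions and 16.1% of those on Y pieces. None of these differences was tested. On chrUn sequences, 47 and 55 were listed at 0%, 30 and 47 at 48%, 102 and 84 at 60%, 181 and 146 at 69%, and 217 and 239 at 78%.

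Between 78% and 48%, 469 of the 806 regions listed at either stage were opened, or 58.2%, and 2 were closed, or 0.248%. Over all regions of the union, 16.5% were opened and 5.26% closed in the same comparison. The share opened was 61.6% on the assembled Y, 53.4% on unplaced Y pieces, 63.4% on unplaced X pieces and 56.2% on chrUn. Opened regions thus made up more than 50% of each class. In lists shortened to the same number of entries, 223 regions were opened and 7 closed. No share over all regions is given for the shortened lists, here or below. Their counts therefore do not compare these regions with all others.

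Between 78% wings and 0% discs, 423 of 817 regions were opened, or 51.8%, and 4 were closed, or 0.49%, against 13.6% opened and 11.2% closed over all regions. By class the share opened was 58.6% on the assembled Y, 49.5% on unplaced Y pieces, 50% on unplaced X pieces and 49.5% on chrUn. Both comparisons use the same 78% libraries, and 417 regions were opened in both, which is 88.9% of the regions opened against 48% and 98.6% of those opened against 0%. In lists of the same length, 221 regions were opened and 5 closed against 0%.

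Step by step, the 60% libraries against the 48% libraries gave 122 opened regions of 377 (32.4%) and 0 closed, beside 11.3% opened and 4.07% closed over all regions. The 69% libraries against the 60% libraries gave 108 of 609 opened (17.7%) and 3 closed, beside 7.62% and 2.66%. The 78% libraries against the 69% libraries gave 66 of 820 opened (8.05%) and 1 closed, beside 3.17% and 4.35%. The share opened was thus larger, and the share closed smaller, than over all regions at each of these 3 steps, none of which was tested. In the 1 Mb of each arm next to the centromere, 16.6%, 10.9% and 6.24% were opened at these steps. By arm the shares ran up to 20.1%, 23.5% and 20.6%, the last 2 of them above those of Y and unplaced regions. The lowest shares by arm were 0%, 2.25% and 1%.

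**Figure D2:**
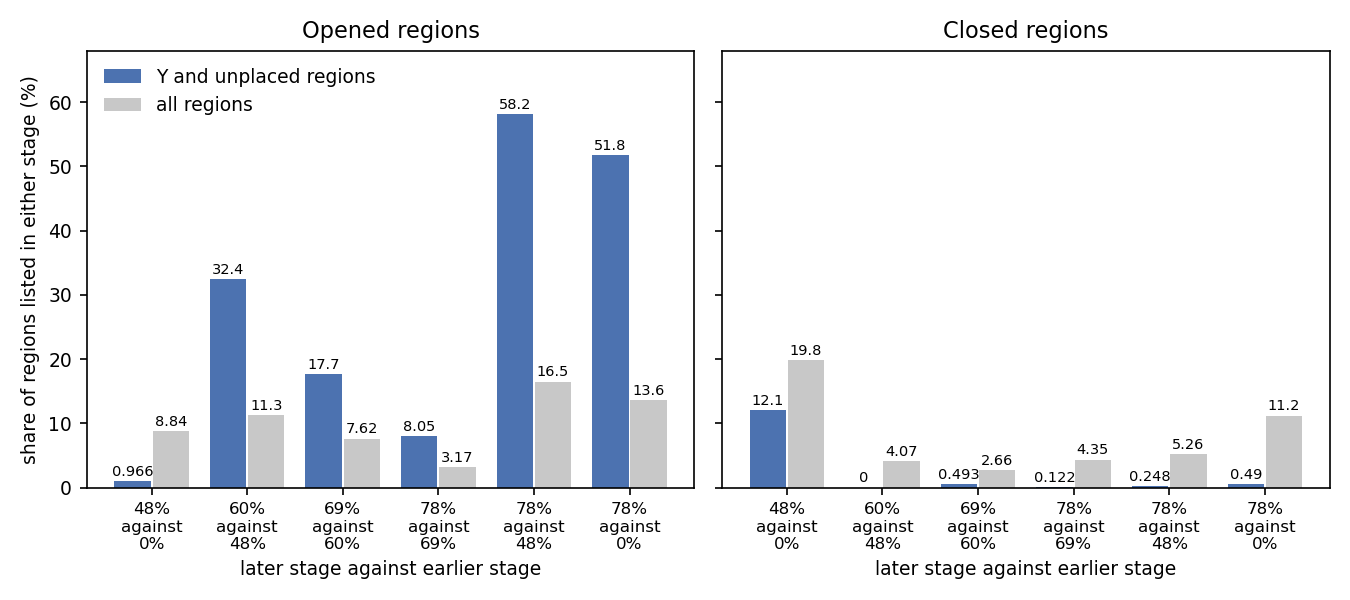
Share of regions opened (left) and closed (right) in 6 comparisons of a later with an earlier stage, for Y and unplaced regions and for all union regions, in percent of the regions listed at either stage. From 60% on, the share opened is higher and the share closed lower for Y and unplaced regions, with 58.2% against 16.5% opened at 78% against 48%.

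The step between discs and the 48% stage was the exception. There 25 of 207 regions were closed, or 12.1%, and 2 were opened, or 0.966%, against 19.8% closed and 8.84% opened over all regions. In lists shortened to equal length the direction was the other one, with 8 opened and 3 closed. The closed regions were 159 to 744 bp wide, with a median of 233 bp, and 23 of the 25 were opened again at 78% against 48%. Of all 845 regions, 22 were in all 8 libraries of the other stages but in neither 48% library, or 2.6%, against 1.27% of all regions. The 2 regions opened at 48% against 0% both lay on chrUn. On chrUn_CP007120v1 the region at 14854 to 15168 had 0 bp in both 0% libraries and 221 and 177 bp at 48%, followed by 227 and 137, 202 and 202, and 0 and 202 bp at 60%, 69% and 78%. On chrUn_DS483695v1 the region at 10820 to 11252 had 0 bp in both 0% libraries, 153 and 144 bp at 48%, 397 and 228 at 60%, 431 and 423 at 69%, and 369 and 365 at 78%.

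Most regions in both libraries of a stage were also in both at 78%. At that stage both libraries listed 70.2% of these regions and 37.4% of all regions. Fewer were kept at 48%, where 88 of the 137 regions in both 0% libraries were in both and 25 in neither. Over all regions it was 19667 and 13204 of 36433. Of the 137 regions in both 0% libraries, 130 were in both 78% libraries, or 94.9%, against 59.7% of all regions. For the 97 regions in both 48% libraries the number was 92, or 94.8%, against 77.0%. Of the 250 in both 60% libraries and the 452 in both 69% libraries, 241 and 439 were in both at 78%, which is 96.4% against 78.6% of all regions, and 97.1% against 77.2%. The number of listing libraries never dropped between one stage and the next in 704 regions, or 83.3%, against 43.9% of all regions. A region first listed at 78% cannot drop, and such regions were 26.0% of these and 13.0% of all regions. First listed at 0% were 23.0% and 56.6%, so the shares without a drop depend on when regions entered the lists. The 1 Mb of the right arm of chromosome 2 next to the centromere had like values, with 92.4%, 95.7%, 97.5% and 93.0% of the regions in both libraries at 0%, 48%, 60% and 69% also in both at 78%, and 78.9% without a drop.

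The stage at which a region entered both lists and stayed there was spread over late development. Both libraries listed 86 regions from 0% on, 5 from 48% on, 149 from 60% on, 199 from 69% on and 154 from 78%. Entry at 60%, 69% and 78% took 17.6%, 23.6% and 18.2% of these regions, against 18.8%, 21.6% and 19.6% in that part of the right arm of chromosome 2 and 5.94%, 5.40% and 5.34% of all regions. The other 252 regions were in 1 library or none at 78%. At 78% alone, 220 regions (26.0%) were listed, 66 of them (30.0%) in both libraries. Over all regions, 13.0% were listed at 78% alone, and 11.8% of those in both libraries. Of the regions in 1 library, 69 were only in replicate 1 and 85 only in replicate 2. Of the regions in either library of a stage, both libraries listed 70.6%, 70.3%, 67.2%, 75.5% and 74.4% at 0%, 48%, 60%, 69% and 78%.

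Other properties of the libraries moved with stage as well. The share of tags inside listed regions, per the file headers, was 56.1% and 59.2% at 0%, 62.5% and 62.8% at 48%, 55.4% and 53.1% at 60%, 46.3% and 46.9% at 69%, and 37.5% and 39.2% at 78%. The later libraries thus held more of their tags outside listed regions, and their part in the result was not tested. The lists held 60866 and 80705 entries at 0%, 41485 and 51422 at 48%, 71280 and 48036 at 60%, 72773 and 75073 at 69%, and 68580 and 80702 at 78%, so that their mean length had the same order from 48% on, while 0% stood above 48% and 60%. The entries on these sequences made up 1.07% and 0.953% of each list at 78%, against 0.294% and 0.342% at 48% and 0.343% and 0.273% at 0%. When each list was shortened to the same 41485 entries by list order, the mean number of regions listed was 92, 104.5, 197.5, 256 and 381 at 0%, 48%, 60%, 69% and 78%. The order of the stages from 48% on was thus the same in lists of equal length, with smaller differences, and 48% no longer lay below 0%. The single libraries listed 111 and 73, 102 and 107, 164 and 231, 276 and 236, and 410 and 352 regions at these stages. Thus 60% and 69% nearly met while 78% lay above all others. The lists carry a constant score, so whether shortening by list order kept the strongest entries is not known.

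**Figure D3:**
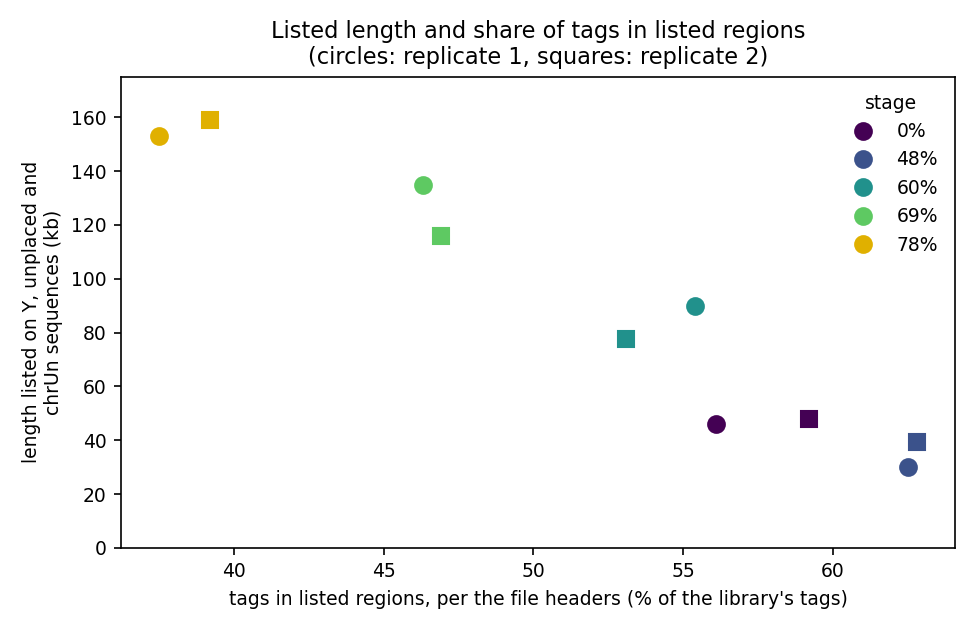
Length listed on Y, unplaced and chrUn sequences (kb) against the share of a library's tags inside listed regions (%), 1 point per library, coloured by stage. The 78% libraries have 153 and 159 kb at 37.5% and 39.2% of tags, and the 48% libraries 29.9 and 39.2 kb at 62.5% and 62.8%.

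The caller's fragment length and the dated folders named in the file headers were also uneven over stages. The fragment length was 208 and 56 bp at 0%, 162 and 206 bp at 48%, 50 and 138 bp at 60%, 58 and 52 bp at 69%, and 52 and 52 bp at 78%. The folder dated first held all replicate 1 libraries and both 48% libraries, and the later one held the other replicate 2 libraries. Pairs of single libraries from 1 folder with fragment lengths of 50 to 56 bp were therefore compared, a choice made after the values were seen. Replicate 2 at 78% against replicate 2 at 0% gave 561 opened and 16 closed regions of 731, or 76.7% and 2.19%, against 31.3% and 29.5% of all regions. Replicate 1 at 78% against replicate 1 at 60% gave 343 opened and 16 closed of 691, or 49.6% and 2.32%, against 21.9% and 21.9% of all regions. In the 1 Mb of each arm next to the centromere, 46.5% and 36.5% were opened in these pairs. By arm the shares ran from 22.0% to 93.5% and from 18.0% to 84.2%, highest on the right arm of chromosome 3. On the right arm of chromosome 2 they were 71.4% and 44.7%. Each pair holds 1 library a side, so these counts carry no spread.

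Regions on these sequences were narrow. Their median width was 153 bp (quartiles 107 and 265 bp, range 85 to 2254 bp), against 257 bp (quartiles 130 and 552 bp) for all regions. Together they covered 198796 bp. Under 150 bp were 404 regions, or 47.8%, against 30.8% of all regions. None of the 404 narrowest was listed in all 10 libraries, nor was any of the 29412 regions under 150 bp on the arms away from the centromere. From 150 to under 300 bp 4.51% were, against 0.287% on those arms. From 300 to under 600 bp 34.9% were, against 12.8%. At 600 bp or more 61.2% were, close to the 60.5% on those arms, and 12 of the 15 regions of at least 1000 bp were. The width of a merged region itself depends on how many lists were joined in it. The 86 regions listed in all 10 libraries had a median width of 483.5 bp, those opened at 78% against 48% one of 164 bp, and the 189 listed in 1 library one of 101 bp. All 10 libraries listed 10.2% of these regions, against 16.7% of all regions.

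Since these regions were narrower than the rest, the comparison was repeated within classes of width. Among regions under 150 bp, 51.1% were opened at 78% against 48%, against 6.98% on the main arms away from the centromere. From 150 to under 300 bp the shares were 79.9% and 30.1%, from 300 to under 600 bp 46.8% and 21.9%, and at 600 bp or more 26.5% and 6.63%. Since merged width depends on which libraries list a region, these classes are not independent of the calls, and the shares describe the classes only. For 78% against 0% it was 49.6% against 4.38%, 67.3% against 20.8%, 37.6% against 20.1%, and 20.4% against 8.4% in the same 4 classes. The 1 Mb of each arm next to the centromere had 18.0%, 41.4%, 33.7% and 25.4% opened at 78% against 0%. Y and unplaced regions were thus above that window under 600 bp, and below it at 600 bp or more. These differences were not tested.

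**Figure D4:**
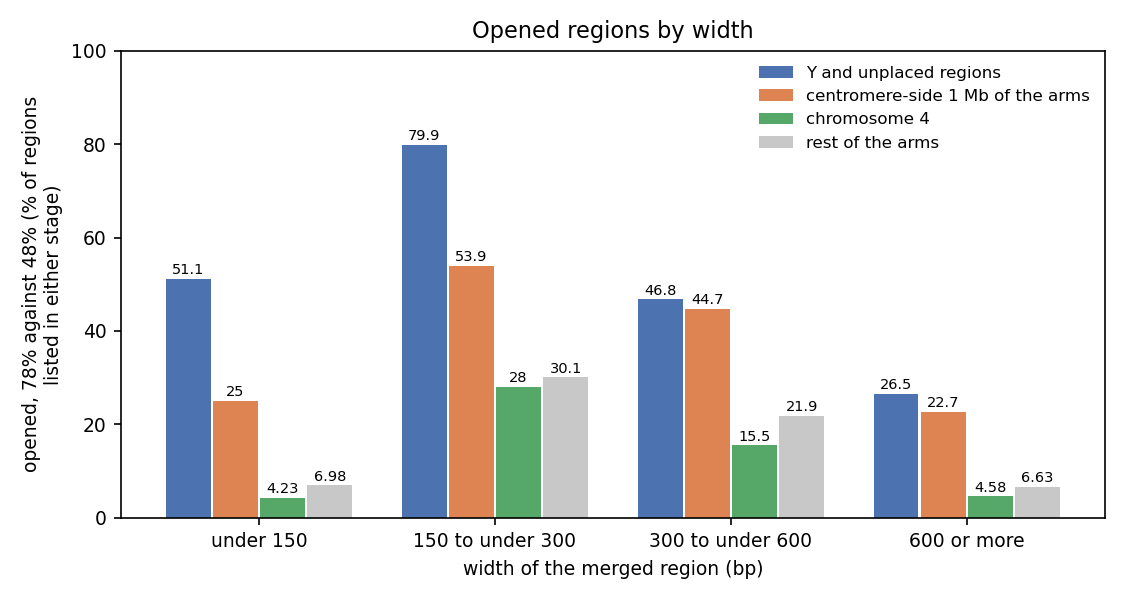
Share of regions opened at 78% against 48% (% of the regions listed at either stage) in 4 classes of merged width, for Y and unplaced regions, the 1 Mb of each main arm next to the centromere, chromosome 4 and the rest of the arms. In this comparison Y and unplaced regions have the highest share in each class, with 79.9% at 150 to under 300 bp.

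Other heterochromatic sequence gave mixed values. Chromosome 4, a small and largely heterochromatic autosome with many active genes, had 47 opened (12.3%) and 22 closed regions at 78% against 48%, and 25 opened (3.85%) and 153 closed (23.5%) at 78% against 0%. It listed 411 and 500 regions at 0%, 204 and 191 at 48%, 243 and 192 at 60%, 238 and 206 at 69%, and 309 and 223 at 78%, so its highest counts were in discs. In the 1 Mb of each arm next to the centromere, a window chosen after the values were seen, 296 regions (36.7%) were opened at 78% against 48%, and 29.1% at 78% against 0%. By arm, the share opened in this window at 78% against 48% ran from 7.92% on the left arm of chromosome 2 to 47.9% (182 of 380 regions) on its right arm. At 78% against 0% it ran from 10.7% to 48.4% (183 of 378 regions) on the same arms. The latter was near the 49.5% on unplaced Y pieces and on chrUn. The share closed there ran from 0.265% on that right arm to 21.0% on the X. The rest of the arms had 15.8% opened at 78% against 48% and 13.1% at 78% against 0%.

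The sequences with the most opened regions at 78% against 48% were led by the assembled Y. There 122 of its 204 regions were opened, and 116 at 78% against 0%. This ranking is by count, so a sequence with more regions can stand higher. Over all these sequences, 58.2% of the regions listed at either stage were opened at 78% against 48%. On the Y piece chrY_CP007114v1_random, 10 of 14 regions were opened in each of these comparisons. It had 0 listed regions in all 4 libraries at 0% and 48%, 5 and 1 at 60%, 9 and 6 at 69%, and 10 and 14 at 78%. This piece was thus without any listed region before 60% and had most of its regions at 78%.

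On chrUn_CP007120v1, 9 of 25 regions were opened against 48% and 8 against 0%. It listed 9 and 9 regions at 0%, 7 and 10 at 48%, 14 and 13 at 60%, 16 and 17 at 69%, and 18 and 21 at 78%, with 6 regions in all 10 libraries. It was present from the disc stage on, unlike the Y piece above. The unplaced X piece chrX_DS483971v1_random had 7 of 8 regions opened against 48% and 5 against 0%. Its listed regions numbered 0 and 2 at 0%, 0 and 0 at 48%, 4 and 2 at 60%, 6 and 7 at 69%, and 7 and 8 at 78%. On chrUn_CP007085v1, 6 of 7 were opened against 48% and 5 against 0%, with 1 and 0 listed at 0%, 0 and 0 at 48%, 1 and 1 at 60%, 4 and 5 at 69%, and 6 and 6 at 78%.

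The sixth place was shared by chrUn_DS483781v1, chrY_DS484175v1_random and chrX_CP007103v1_random, with 5 opened regions each, so that the leading sequences came from all 4 classes. The gain was spread thinly beyond them. In all, 227 of the 352 sequences had a region opened at 78% against 48%, 158 of them with 1 such region, 56 with 2 or 3 and 5 with 4. Of the 352 sequences, 214 carried 1 region, 106 carried 2 or 3 and 32 carried at least 4. On 228 sequences the first listing came at 60% or later, while 57 sequences were listed in all 10 libraries.

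On the assembled Y the regions were gathered in 3 blocks. Regions at most 50 kb apart were joined, and blocks of at least 20 regions were kept, a rule chosen after the values were seen. The first block, at 853568 to 1052221, held 90 of the 204 regions (44.1%) in 199 kb, or 45.3 regions per 100 kb, and holds Su(Ste) copies. It had 24 and 25 listed regions at 0%, 17 and 23 at 48%, 54 and 45 at 60%, 76 and 64 at 69%, and 78 and 79 at 78%. In it, 17 regions were listed in all 10 libraries and 48 were opened at 78% against 48%, so it held both constant and late regions.

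The second block, at 2585488 to 2665229, held 51 regions in 79.7 kb, or 64.0 per 100 kb, with 1 in all 10 libraries. It listed 6 and 5 regions at 0%, 2 and 3 at 48%, 17 and 11 at 60%, 31 and 27 at 69%, and 41 and 39 at 78%, with 29 opened at 78% against 48%. The third, at 3244801 to 3288220, held 20 regions in 43.4 kb, or 46.1 per 100 kb, and holds pseudogenes related to CG12717. It had no listed region at 0% or 48%, 7 and 3 at 60%, 14 and 10 at 69%, and 16 and 18 at 78%, with 14 opened. The remaining 43 regions were scattered, at 1.22 per 100 kb of the whole span of assembled Y regions, with the length of the blocks included. Of them, 2 were listed in each library at 0% and 48%, 11 and 9 at 60%, 26 and 20 at 69%, and 39 and 36 at 78%. The blocks thus differed in what they held in discs and shared the higher counts late.

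**Figure D5:**
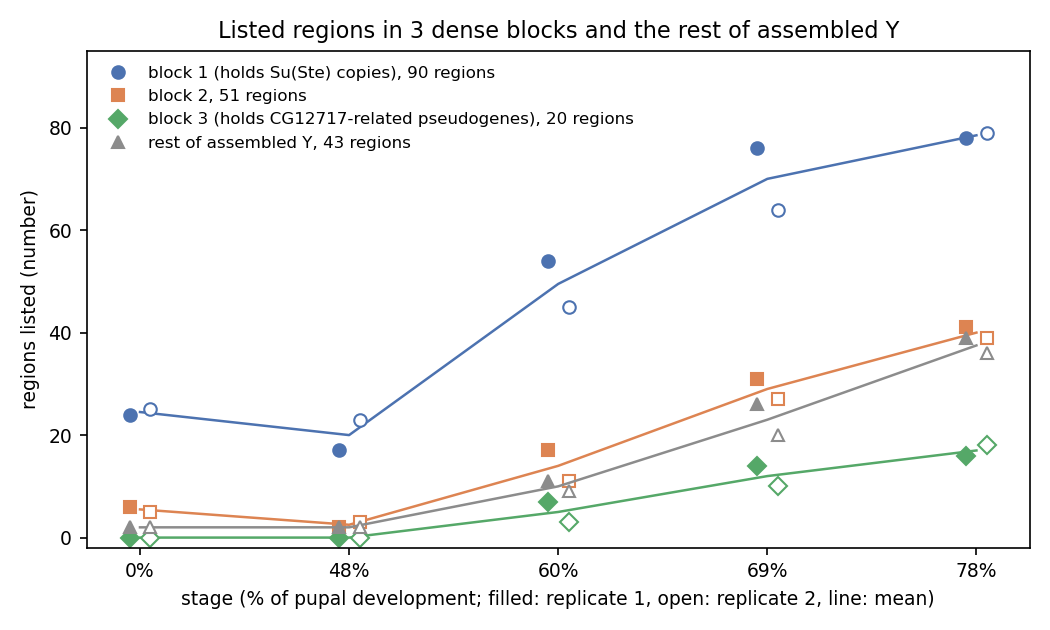
Listed regions per library in the 3 dense blocks of the assembled Y and in the rest of it, by stage, with filled points for replicate 1, open points for replicate 2 and a line through the mean. The first block has 24 and 25 regions at 0% and 78 and 79 at 78%, while the third has 0 before 60% and 16 and 18 at 78%.

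Most regions of the assembled Y lay away from annotated genes. The gene table gave coordinates on the assembled Y for 113 genes, of which 20 were overlapped by a region and 28 had one inside or within 1 kb. Of the 204 regions, 36 overlapped a gene, 56 lay inside or within 1 kb of one, and 148 (72.5%) did neither. The part of the assembled Y that genes cover was not measured, so these counts show no preference for or against genes. The gene table names no sequence for the ribosomal RNA genes of the X and Y, and they were assigned to no region.

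The Su(Ste) copies were the largest group of genes with regions. Of 27 copies, 14 had a region inside or within 1 kb, with 32 regions in all. These were listed 7 and 7 times at 0%, 5 and 6 at 48%, 17 and 13 at 60%, 26 and 23 at 69%, and 29 and 28 at 78%. Of the 32, 20 were opened at 78% against 48%, and 5 were in all 10 libraries. Among single copies, Su(Ste):CR42426 had 4 of 5 regions opened, Su(Ste):CR42412 4 of 4 and Su(Ste):CR42432 3 of 4. Since the copies are near-identical, which copy gave the reads is uncertain.

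Of the 29 pseudogenes related to CG12717, 3 had a region, with 9 regions in all. They were listed in none of the 0% and 48% libraries, in 5 and 2 cases at 60%, 8 and 6 at 69%, and 7 and 8 at 78%, with 7 opened at 78% against 48%. Of these, CR46150 had 4 of 4 regions opened and CR46152 3 of 4. The Mst77Y genes, Y-linked relatives of the sperm chromatin gene Mst77F, had 1 region at 1 of 18 copies, in replicate 1 at 78% alone. The 3 groups thus ranged from regions already in discs to almost none.

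The protein-coding Y genes that were sought by name were nearly bare. Of the 12 genes of this list that matched the table, 5 had a region inside or within 1 kb, with 8 regions in all. No region was listed at these genes at 0% or 48%, 3 and 2 at 60%, 5 and 6 at 69%, and 8 and 6 at 78%, and 6 of the 8 were opened at 78% against 48%. None was at Pp1-Y1, PRY, kl-3, ARY, WDY, FDY or Pp1-Y2. As these genes are known from the male germ line and the wing is somatic tissue, their regions are described one by one.

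The gene kl-5, which encodes a dynein heavy chain of the sperm tail and spans 22250 to 137486 on the Y, held 3 regions. At 124220 to 124420, both libraries at 0% and 48% had 0 bp, the 60% libraries 101 and 101 bp, the 69% libraries 157 and 101 bp, and the 78% libraries 201 and 189 bp. At 132598 to 132785 the length was again 0 bp at 0% and 48%, then 130 and 158 bp at 60%, 188 and 126 bp at 69%, and 128 and 127 bp at 78%. At 132438 to 132563 it was 101 bp in replicate 2 at 69%, 126 and 101 bp at 78%, and 0 bp in the other libraries. All 3 regions were thus absent before 60% and present in both libraries at 78%.

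Ppr-Y had a region at 1642404 to 1642536, with 127 and 101 bp at 69%, 126 and 127 bp at 78%, and 0 bp before. CCY, which encodes a coiled-coil protein, had one at 3652860 to 3652987, with 101 and 101 bp at 69%, 126 and 101 bp at 78%, and 0 bp before. ORY had one at 3606642 to 3606746, with 101 bp in replicate 1 and 0 bp in replicate 2 at 60%, then 101 bp in all 4 libraries at 69% and 78%. kl-2, another dynein heavy chain gene, had 1 region inside it, at 654078 to 654178, and 1 outside but within 1 kb of it, at 665083 to 665183, both in replicate 1 at 78% alone and so not repeated. Many of these lengths are 101 bp, which was also the commonest width of the 845 regions, held by 152 of them.

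At the other end stood wide regions listed in every library. The widest, at 9923 to 12176 on chrY_DS483677v1_random, spans 2254 bp, of which 2027 and 1941 bp were listed at 0%, 1882 and 1971 at 48%, 2204 and 2110 at 60%, 2202 and 2204 at 69%, and 2159 and 2208 at 78%. On chrUn_DS483781v1, the region at 14 to 2154 had 1898 and 2054 bp at 0%, 1971 and 1955 at 48%, 2105 and 2106 at 60%, 2119 and 2114 at 69%, and 2106 and 2109 at 78%. These regions were nearly as long in discs as in late wings.

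Others were listed throughout but were longer late. At 25957 to 28041 on chrY_CP007111v1_random, 921 and 958 bp were listed at 0%, 1540 and 1614 at 48%, 1711 and 1911 at 60%, 1885 and 1891 at 69%, and 1882 and 1893 at 78%. On the assembled Y, the region at 883833 to 885431 had 826 and 751 bp at 0%, 629 and 793 at 48%, 1486 and 1257 at 60%, 1366 and 1440 at 69%, and 1207 and 1220 at 78%. At 9 to 1139 on chrY_DS485329v1_random, 645 and 525 bp were listed at 0%, 674 and 820 at 48%, 1080 and 1045 at 60%, 1097 and 1102 at 69%, and 1100 and 1131 at 78%. In all 3, every library from 60% on was longer than every library at 0% and 48%. The same was true, by smaller margins, of the widest region and of the one on chrUn_DS483781v1 described above.

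Over the 86 regions listed in all 10 libraries, the listed length was 34.5 and 34.4 kb at 0%, 27.5 and 31.7 kb at 48%, 42.9 and 41.2 kb at 60%, 44.8 and 44.2 kb at 69%, and 44.4 and 44.7 kb at 78%. As a share of their merged length this was 85.7% and 86.3% at 78%, against 53.1% and 61.2% at 48% and 66.6% and 66.3% at 0%. Constant regions on the arms did not show this, with 57.5% and 62.9% at 78%, against 66.4% and 65.8% at 48% and 66.6% and 68.6% at 0%. On chromosome 4 the share was 66.3% and 60.3% at 78%, against 71.2% and 65.6% at 48% and 82.0% and 78.9% at 0%. The summed length on Y and unplaced sequence thus did not overlap between the libraries from 60% on and those before. Single regions were mixed. In 56 of the 86 (65.1%) both 78% libraries were longer than both 0% libraries, in 7 (8.14%) both were shorter, and in 23 the stages overlapped, beside 28.9% longer and 43.2% shorter over all regions listed in every library. Against 48%, 70 (81.4%) were longer and 6 (6.98%) shorter at 78%, beside 26.5% and 44.2%. The region at 1310 to 2381 on chrUn_DS484314v1, chosen after its values were seen, was among the shorter ones, with 1027 and 1044 bp at 0%, 588 and 575 at 48%, 565 and 722 at 60%, 623 and 532 at 69%, and 467 and 632 at 78%.

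Regions lost late were few and gathered on 1 sequence. Of the 4 regions closed at 78% against 0%, 3 lay on chrY_CP007111v1_random, beside the wide region described above. At 1367 to 1744, 239 and 378 bp were listed at 0%, 243 and 203 at 48%, 260 and 259 at 60%, and 0 bp in all 4 libraries at 69% and 78%. At 8615 to 8794, 101 and 101 bp were listed at 0%, 0 bp at 48%, 101 and 101 bp at 60%, and 0 bp after. At 13433 to 13650, 189 and 213 bp were listed at 0%, 101 and 0 at 48%, 128 and 126 at 60%, and 0 bp after. All 3 were thus in both libraries at 60% and in neither at 69%, and they are the 3 regions closed at 69% against 60%. The fourth, at 269 to 427 on chrX_DS483818v1_random, had 101 and 153 bp at 0% and 0 bp in every later library. At 10798 to 11018 on chrUn_CP007101v1, a region closed at 78% against 48% had 101 bp in replicate 2 at 0%, in both libraries at 48% and in replicate 1 at 60%, and 0 bp elsewhere.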

How the data were processed

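The submitters' processing notes name dm6 as the build and, without versions, HOMER, MACS2, Bowtie2, SAMtools and Picard as tools. Per the file headers, each region list was made by the authors with HOMER findPeaks in its histone style (window 100 bp, Poisson p 0.001, local region 10 kb with p 0.0001, genome size 120 Mb, no input). The score in the deposited lists is the constant 1 and was not used, and the other deposited columns are coordinates, written here counted from 1. Overlapping entries of the 10 D. melanogaster lists were merged in Python 3.11.15 with pandas 2.3.3. Depth limits which weak regions enter a list, and without a signal value no interval can be given. Y genes came from the RefSeq gene table of the same assembly. In it 12 of the 13 protein-coding Y genes sought by name had a match, and 10 genes of unplaced pieces were left out. The members, lists and comparisons were chosen with earlier results of these data known. Named were the 6 sequences with the highest counts of opened and 3 with those of closed regions, and the widest and most constant regions. Also named were the genes sought by name that had a region, and the 5 other genes with most opened regions. How wings were split between replicates is not stated, so the SDs measure the spread between libraries, which may be technical. The planned promoter motif count and the D. biarmipes lists were not used here.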

Additional observations from a re-analysis of the deposited data

How the results depend on the processing

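From 48% on, opened regions outnumbered closed ones under every alternative tried, and over all comparisons the same side was ahead in 41 of 42 pairs of comparison and alternative. The exception was 48% against 0% in lists of equal length, with 8 opened and 3 closed. No share over all regions is given for any alternative, so these counts do not compare these regions with all others. Over all regions in the main lists, opened also outnumbered closed at 78% against 48%, with 16.5% and 5.26%. At 78% against 69% they did not, with 3.17% and 4.35%. Of 94 values, 49 stayed within 1.5 times of the one reported. In lists of equal length, 223 regions were opened and 7 closed at 78% against 48%, 221 were opened at 78% against 0%, and the mean listed was 92, 197.5, 256 and 381 at 0%, 60%, 69% and 78%. With at least 50% of a region covered, 4, 7 and 3 were closed at 78% against 48%, 0% and 69%. Merging entries up to 100 bp apart left 1 opened at 48% against 0%. The authors' pooled lists gave 7 opened and 65 closed there, and 5 and 16 closed at 78% against 48% and 0%.

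Leaving out libraries asks for fewer lists and so cannot give smaller counts, by construction. Without replicate 1 or 2 of both stages, or without 1 library, 2 to 19 regions were opened and 29 to 66 closed at 48% against 0%, 473 to 592 opened and 3 to 10 closed at 78% against 48%, and 441 to 561 opened and 5 to 16 closed at 78% against 0%. Without replicate 1 or 2 of both stages, 151 to 246 were opened and 0 to 10 closed at 60% against 48%, 216 to 235 and 8 to 14 at 69% against 60%, and 150 to 248 and 15 to 44 at 78% against 69%. No paired analysis was possible because the calls come from no test. Asking for the change within each replicate number gives the same calls by construction, and the values without a replicate number are those within the other. Depth limits which short regions reach a list, and the equal-length lists alter this only by list order.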
